A study of Solanum pimpinellifolium with 72 samples.

Results

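Cloned loci for tomato fruit size and shape other than the locule number loci lc and fas were followed in young flowers of the wild tomato Solanum pimpinellifolium. The 7 genes were chosen by name, not by any measured value: OVATE (Solyc02g085500), OFP20 (Solyc10g076180), SUN (Solyc10g079240), KLUH at the FW3.2 locus (Solyc03g114940), CSR at the FW11.3 locus (Solyc11g071940), FW2.2 (Solyc02g090730) and ENO (Solyc03g117230). They are 7 of the 34727 genes in the table, and 6 of them, all but CSR, were among the 20577 genes tested, which reached 1 RPKM in no fewer than 4 libraries. RPKM is the number of reads scaled to the length of the gene model and to the size of the library.

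Strand-specific whole mRNA libraries were compared in 72 libraries, 4 replicates for each of the 18 combinations of 6 genotypes and 3 stages. RNAi-SlCLV3 expresses, from a constitutive viral promoter, a hairpin against SlCLV3, the gene of the peptide that limits the stem cell pool of the meristem. The near-isogenic line lc carries the cultivated allele with a pair of SNPs downstream of SlWUS, which encodes the stem cell promoting factor, and fas carries an inversion that breaks the SlCLV3 promoter. The line lc/fas carries both alleles, HC2 is fas with an added genomic copy of SlCLV3 under its own promoter, and WT has neither allele nor transgene, all in the LA1589 background. Early samples pooled inflorescence meristems, floral meristems and the youngest buds (labelled 2dpi), and the later samples were floral buds 4 or 6 days after floral initiation (4dpi, 6dpi). The methods describe the collection only for RNAi-SlCLV3 and WT, weekly from a small set of plants per genotype. The paper calls the replicates of RNAi-SlCLV3 and WT biological. Nothing says that each came from separate plants. The p-values of the main fit measure the spread between replicate libraries, estimated for each gene over all 18 groups together. This was not shown to be the spread between plants.

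Fruit form in tomato is laid down early, in the meristem and the young ovary, by when and in which direction cells divide. OVATE and OFP20 encode OVATE family proteins that restrain elongation, and SUN encodes an IQ67-domain protein that elongates the fruit when it is duplicated. KLUH is a cytochrome P450 of the CYP78A class, known in Arabidopsis as a promoter of organ growth, FW2.2 is a membrane protein that restrains cell division, CSR acts on cell size late in fruit growth, and ENO is an AP2/ERF transcription factor that restrains the floral meristem.

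Reads in genes ran from 2930917 a library (WT early replicate 3) to 58635933 (HC2 4dpi replicate 3). SlCLV3 stood at 2.24 to 4.60 RPKM in early RNAi-SlCLV3 libraries and at 4.66 to 10.5 RPKM in early WT libraries, and the groups overlapped at 4dpi and 6dpi. The paper proposes that what remains in RNAi-SlCLV3 stems from incomplete RNAi or from transcripts of the hairpin. These values may therefore not measure the native gene alone. SlYABBY2b, at the other end of the fas inversion, was at no more than 7.19 RPKM in every fas, lc/fas and HC2 library and at 27.5 RPKM or more in the others. The meristem markers SlWUS, SlCLV3 and the STM homologue (Solyc02g081120) were detected in all 72 libraries, as were the young flower markers TM5 (Solyc05g015750) and an AP1-type gene (Solyc02g089210). A pair of libraries stood apart from their groups over all genes. The lc 4dpi replicate 2 and the HC2 4dpi replicate 3 had a median correlation with their own group of 0.958 and 0.970. In the lc library OVATE was at 53.1 RPKM (22.6 to 29.5 in its 3 fellow replicates), OFP20 at 15.5 (3.71 to 5.11) and ENO at 50.3 (14.0 to 23.9). In the HC2 library OVATE was at 43.7 RPKM (19.5 to 23.6) and OFP20 at 12.4 (2.41 to 5.12), while ENO was at 21.8 (15.2 to 29.5). SlWUS (13.4 RPKM, against 3.52 to 5.77) and the AP1-type gene (39.1 RPKM, against 17.5 to 24.8) were also high in the lc library. The part of these libraries in each result was examined by leaving them out.

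The 7 genes spanned a wide range of levels. KLUH averaged 167 RPKM over the 72 libraries, above 92.7% of the tested genes, followed by OVATE at 26.6 RPKM and ENO at 24.1 RPKM. FW2.2 averaged 7.31 RPKM, OFP20 6.71 RPKM and SUN 1.00 RPKM, the last above 7.80% of the tested genes. The reads behind a single library's value ran from 1100 to 17014 for KLUH and from 93 to 3038 for OVATE, but from 3 to 88 for SUN, so small differences in SUN were not detectable at this depth. CSR was listed at 0 in 71 libraries. Its only value was 0.452 RPKM in fas 4dpi replicate 2, which would be 1 read if the counted model were 97 bases long, so these values give no measurement of the gene. The part of depth and of the gene model in the 0 values was not tested.

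**Figure D1:**
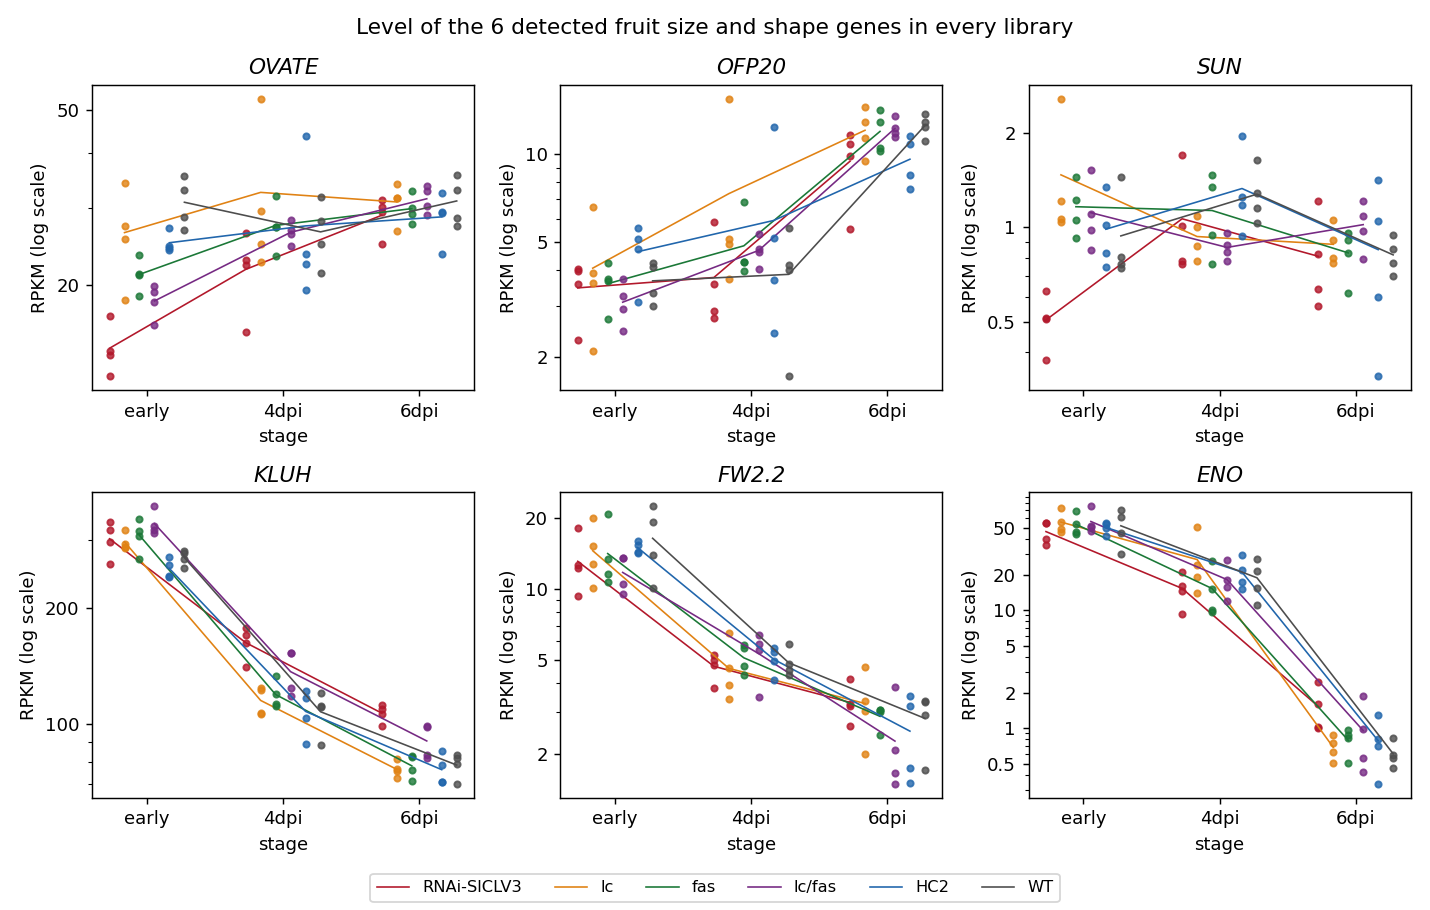
RPKM on a log axis of the 6 detected genes at the early stage, 4dpi and 6dpi, with 1 point per library, a colour per genotype and lines through the means of 4 replicates. The means of KLUH, FW2.2 and ENO are highest at the early stage and those of OFP20 at 6dpi in all 6 genotypes, and the OVATE means span 14.4 to 30.9 RPKM early and 28.6 to 31.4 RPKM at 6dpi.

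The first comparison asked how the genes change while the WT flower forms. From the early stage to 4dpi, KLUH, FW2.2 and ENO fell and none of the 6 tested genes rose, where 28.0% of all tested genes passed the test (limma on log2(RPKM + 1), adjusted p below 0.05). From 4dpi to 6dpi, KLUH and ENO fell further and OFP20 rose, against 8.10% of all tested genes. The early WT means of KLUH, FW2.2 and ENO were 3.44, 5.81 and 85.5 times their 6dpi means. Since these are bulk samples of changing composition, fewer cells of a type and less RNA per cell cannot be told apart.

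ENO showed the steepest decline. WT libraries held 61.1, 70.8, 29.7 and 45.4 RPKM at the early stage, 21.4, 27.2, 11.1 and 15.3 RPKM at 4dpi and 0.555, 0.819, 0.457 and 0.591 RPKM at 6dpi, so no library of a stage overlapped the next. The log2 change was -1.42 ± 0.28 (SE) at the first step (adjusted p = 5.98e-05) and -3.55 ± 0.28 at the second (adjusted p = 5.04e-15). At each stage replicate 2 was the highest WT library and replicate 3 the lowest. In all genotypes ENO stayed between 0.336 and 2.47 RPKM at 6dpi, where its early range was 29.7 to 75.6 RPKM.

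KLUH had 277, 280, 253 and 267 RPKM in early WT libraries, 120, 111, 88.5 and 111 RPKM at 4dpi and 81.6, 78.8, 70.0 and 82.9 RPKM at 6dpi. The stages did not overlap, and the larger part of the fall came first. The log2 change was -1.32 ± 0.09 at 4dpi against early (adjusted p = 7.61e-18) and -0.45 ± 0.09 at 6dpi against 4dpi (adjusted p = 4.30e-04). Its 6dpi level was still the highest of the 7 genes.

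FW2.2, the restraint on cell division, had 19.2, 22.4, 14.0 and 10.1 RPKM in early WT libraries, 5.83, 4.31, 4.80 and 4.52 RPKM at 4dpi and 2.93, 3.31, 1.70 and 3.36 RPKM at 6dpi. Its first step was -1.52 ± 0.22 (adjusted p = 6.26e-08). The second, -0.64 ± 0.22, missed the threshold in the main fit, which leaves replicate numbers out (adjusted p = 0.0544), although the libraries did not overlap. Same-numbered replicates of these groups, less their group means, correlated at 0.147 to 0.507 over all genes. With the replicate number as a block, which takes up this pairing, the change passed at an adjusted p of 0.0166. It also passed with a pseudocount of 0.1 RPKM, under both other scalings and without the libraries that stood apart (adjusted p = 8.79e-03 to 0.0486).

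OFP20 moved the other way and late. WT libraries held 4.23, 3.00, 3.32 and 4.08 RPKM at the early stage, 4.15, 5.57, 1.71 and 3.98 RPKM at 4dpi and 11.1, 12.9, 12.5 and 13.8 RPKM at 6dpi. Every 6dpi library lay above every earlier library. The log2 change was -0.00 ± 0.28 at the first step (95% interval -0.55 to 0.55) and 1.55 ± 0.28 at the second (adjusted p = 3.74e-05).

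OVATE and SUN did not pass the test at either step in WT. OVATE stood at 30.9 ± 3.93 RPKM early, 26.4 ± 4.45 at 4dpi and 31.1 ± 3.90 at 6dpi (SD, n = 4 each), with log2 steps of -0.22 (95% interval -0.56 to 0.12) and 0.23 (-0.11 to 0.57). SUN stood at 0.940 ± 0.339 RPKM early, 1.28 ± 0.261 at 4dpi and 0.817 ± 0.106 at 6dpi, with steps of 0.24 (-0.06 to 0.54) and -0.32 (-0.62 to -0.02), the second at an adjusted p of 0.220.

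The same steps were taken in each genotype. KLUH, FW2.2 and ENO passed downward at 4dpi against early in each of the 6 genotypes, with FW2.2 changes of -1.03 (lc/fas) to -1.52 (WT), ENO changes of -1.17 (lc) to -1.83 (fas) and KLUH changes of -0.89 (RNAi-SlCLV3) to -1.36 (fas). KLUH and ENO passed downward again at 6dpi against 4dpi in each genotype. The shares of all tested genes called at the first step were 19.3% in RNAi-SlCLV3, 34.5% in lc, 27.5% in fas, 20.1% in lc/fas and 25.3% in HC2. At the second step they were 4.38%, 11.8%, 7.32%, 5.93% and 9.78% in the same order. In RNAi-SlCLV3 OVATE (0.55, adjusted p = 0.0136) and SUN (0.44, adjusted p = 0.0318) also rose at the first step, 5 of 6 genes in all, and in lc/fas OVATE did (0.50, adjusted p = 0.0265), 4 of 6. These 3 calls were lost on leaving out single libraries. For OVATE in RNAi-SlCLV3 these were early replicate 2 (0.0642) and 4dpi replicate 4 (0.0818), and for OVATE in lc/fas early replicate 3 (0.0895) and 4dpi replicates 1 (0.0515) and 2 (0.0712). For SUN they were early replicate 1, 2 or 3 and 4dpi replicate 2 or 3 (up to 0.221). The ENO call at the first step in lc was lost when the fit held only the groups compared (adjusted p = 0.0588).

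OFP20 rose at 6dpi against 4dpi in RNAi-SlCLV3, lc, fas, lc/fas and WT, by 0.83 (lc) to 1.55 (WT) on the log2 scale, and HC2 gave 0.80 at an adjusted p of 0.0518. In lc and HC2 these values were lowered by the libraries that stood apart, which were high at 4dpi. Without them the changes were 1.23 in lc (adjusted p = 1.46e-04) and 1.19 in HC2 (adjusted p = 1.83e-04). The lc call with all libraries was lost on leaving out lc 4dpi replicate 1, 3 or 4 or lc 6dpi replicate 2, 3 or 4, with adjusted p values from 0.0620 to 0.146, and also with no filter (0.0503), under both other scalings (0.0560 and 0.0701) and in the fit of the compared groups alone (0.324). FW2.2 fell at the second step in lc/fas (-0.98, adjusted p = 1.12e-03) and in HC2 (-0.83, adjusted p = 6.03e-03), the HC2 call being lost without HC2 6dpi replicate 1 (adjusted p = 0.0511). In fas FW2.2 was at 2.40 to 3.06 RPKM at 6dpi, below the 4.30 to 5.81 RPKM at 4dpi, and its change of -0.65 missed the threshold (adjusted p = 0.0508). It passed with a pseudocount of 0.1 RPKM, under both other scalings, with the replicate block, in the fit of the compared groups alone, by voom, without fas 4dpi replicate 4 and without the libraries that stood apart (adjusted p = 9.88e-03 to 0.0496).

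Averaged over the 6 genotypes, 5 of the 6 tested genes passed at 4dpi against early, where 66.9% of all tested genes did, and 6 of 6 at 6dpi against 4dpi, where 38.0% did. The averaged changes of KLUH were -1.24 ± 0.04 and -0.55 ± 0.04, those of FW2.2 -1.33 ± 0.09 and -0.65 ± 0.09, and those of ENO -1.48 ± 0.11 and -3.35 ± 0.11. OFP20 changed by 0.27 ± 0.11 and 1.12 ± 0.11, its first value falling to 0.14 (adjusted p = 0.171) without the libraries that stood apart, and being lost also without the libraries of replicate 2, 3 or 4. OVATE changed by 0.25 ± 0.07 and 0.19 ± 0.07 and SUN by -0.17 ± 0.06 at the second step. These small changes of OVATE and SUN did not hold on leaving out single replicate numbers. The first OVATE call was lost without replicate 3 (adjusted p = 0.0910), the second without replicate 1 or 4 (0.0895 and 0.161) and under both other scalings (0.0776 and 0.0637), and the SUN call without replicate 1, 2 or 4 (adjusted p up to 0.138).

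Levels of the early genes moved together over the 18 group means. The Pearson correlation of log2(RPKM + 1) was 0.96 for KLUH and FW2.2, 0.90 for FW2.2 and ENO and 0.88 for KLUH and ENO. OFP20 ran opposite to ENO at -0.94, and those of SUN with the others lay between -0.35 and 0.35. All 18 points share the 3 stages, so these values describe a common course over stages. Of the known meristem and locule genes, SlWUS, SlCLV3, SlCLE9, the STM homologue and the ANT homologue (Solyc04g077490) fell in WT from the early stage to 4dpi. SlYABBY2b rose, so 5 of 6 went downward, where 3346 of all 20577 tested genes did. The paper groups SlWUS, SlCLV3 and the STM and ANT homologues by their decline in WT, so this count only describes the list. TM5 rose to 158 RPKM at 4dpi, against 27.5 RPKM early. The part of these marker changes in the course of KLUH, FW2.2, ENO and OFP20 was not tested.

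The second comparison asked whether lowering SlCLV3 alters the genes. At the early stage, OVATE was lower in RNAi-SlCLV3 and was the only one of the 6 tested genes to pass, where 4.58% of all tested genes did. At 4dpi and at 6dpi, KLUH was higher in RNAi-SlCLV3 and was again the only one to pass, where 3.46% and 1.25% of all tested genes did. Over the stages, OVATE passed downward and KLUH upward, 2 of 6 tested genes against 12.9% of all tested genes.

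Early RNAi-SlCLV3 libraries held 14.2, 12.4, 13.8 and 17.0 RPKM of OVATE, against 32.9, 35.3, 26.8 and 28.5 RPKM in WT. Every RNAi-SlCLV3 library lay below every WT library, and the mean was 0.465 times that of WT. The log2 change was -1.05 ± 0.17 (adjusted p = 9.67e-06), and it held in all 17 alternatives tried, between -1.16 and -0.99. At 4dpi the libraries held 15.6, 22.8, 22.2 and 26.3 RPKM in RNAi-SlCLV3, against 28.0, 31.7, 24.8 and 21.3 RPKM in WT, and the groups overlapped (-0.28, 95% interval -0.62 to 0.06). At 6dpi the means were 28.8 ± 2.86 RPKM in RNAi-SlCLV3 and 31.1 ± 3.90 RPKM in WT (-0.10, interval -0.44 to 0.24). The difference between the RNAi-SlCLV3 effects at 6dpi and early was 0.95 ± 0.24 at an adjusted p of 0.0504, where 0.340% of all tested genes were called. For 4dpi less early it was 0.77 ± 0.24 at an adjusted p of 0.283, where 0.170% were called. Both differences passed when the libraries that stood apart, neither of them RNAi-SlCLV3 or WT, were left out of the shared fit (adjusted p = 1.84e-03 at 6dpi and 0.0326 at 4dpi), and that at 6dpi also in the fit of the compared groups alone (0.0329).

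**Figure D2:**
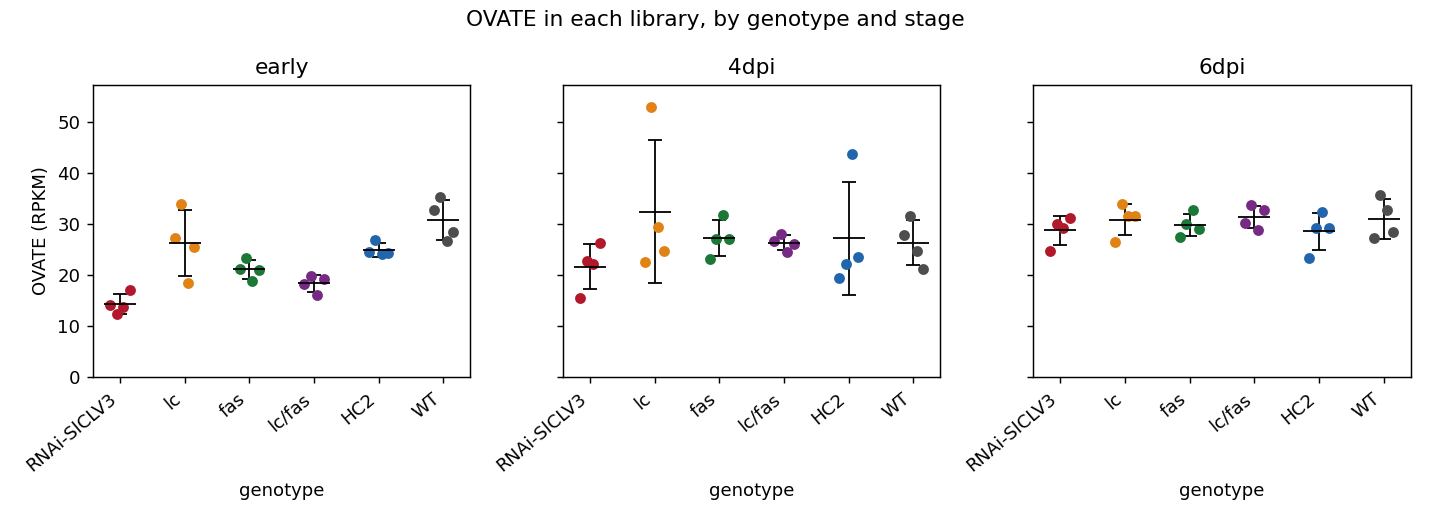
OVATE in RPKM in each library (points) by genotype and stage, with the mean (bar) and SD of 4 replicates. Early RNAi-SlCLV3 libraries sit between 12.4 and 17.0 RPKM, below the 26.8 to 35.3 RPKM of early WT, and the single high points at 4dpi are lc replicate 2 and HC2 replicate 3.

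Other genotypes lay between these ends at the early stage. OVATE had 18.3, 19.9, 16.2 and 19.3 RPKM in lc/fas and 21.2, 23.4, 18.9 and 21.1 RPKM in fas, every library below every WT library. It had 27.2, 34.1, 18.5 and 25.5 RPKM in lc and 24.5, 26.9, 24.1 and 24.3 RPKM in HC2. The order of the early means was WT, lc, HC2, fas, lc/fas and RNAi-SlCLV3. Among neighbours in it, only HC2 and fas did not overlap. Against WT the change passed in lc/fas (-0.71 ± 0.17, adjusted p = 0.0279), where 0.360% of all tested genes were called, and no other of the 6 genes did. The lc/fas call was lost on leaving out lc/fas early replicate 1, 3 or 4 or WT early replicate 1 or 2 (adjusted p = 0.0639 to 0.170) and in the fit of these groups alone (0.105), and held without the libraries that stood apart (4.51e-04). The other lines gave -0.52 (95% interval -0.86 to -0.18, adjusted p = 0.539) in fas, -0.24 (-0.58 to 0.09) in lc and -0.29 (-0.63 to 0.05) in HC2, and none of the 6 genes passed there by limma, where 0.0583%, 0.180% and 1.39% of all tested genes were called. At an unadjusted p below 0.05 the counts were 2 (OVATE and KLUH), 1 (SUN) and 0 in fas, lc and HC2, and voom weights on recovered reads gave 0 in each.

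The test of any genotype by stage interaction passed for 0 of the 6 genes and for 0.296% of all tested genes by limma, with 3 genes (OVATE, SUN and KLUH) at an unadjusted p below 0.05 and 0 by voom. OVATE had an F of 2.74 and an adjusted p of 0.714 with all libraries. Without the libraries that stood apart its F was 5.37 at an adjusted p of 6.71e-03, so the result for OVATE turns on those 2 libraries.

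At the early stage the AP1-type gene was higher in RNAi-SlCLV3 than in WT, at 98.3 and 58.7 RPKM (0.72 ± 0.17, adjusted p = 3.96e-03), TM5 was at 20.3 and 27.5 RPKM (-0.46, adjusted p = 0.277), and the STM homologue was at 198 and 201 RPKM. The part of such marker differences in the OVATE result was not tested.

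The gene with the pattern most like OVATE was the next identifier on chromosome 2, Solyc02g085510, with r = 0.97 over the 18 group means, followed by Solyc07g040730 at 0.90. Solyc02g085510 averaged 15.9 ± 3.45 RPKM in early RNAi-SlCLV3 and 36.2 ± 4.93 RPKM in early WT. Across the 72 libraries the ratio of OVATE to this gene ran from 0.601 to 1.12, so the counts were not proportional, and whether the models overlap was not tested. Since OVATE and SlWUS, the site of lc, are both on chromosome 2 by identifier, the 100 tested genes nearest to OVATE were examined. None of them was called in lc or in fas over the stages, where 0.539% and 0.0826% of all tested genes were. At such shares no call among 100 genes was likely. The stretch also stops short of SlWUS, as 131 tested genes lie between SlWUS and OVATE, so linkage to lc was not tested. Around CSR on chromosome 11, which carries the fas inversion, in a stretch that holds SlCLV3 and SlYABBY2b themselves, 5 of 100 were called in fas (0.0826% of all tested genes), 9 of 100 in lc/fas (1.02%) and 19 of 100 in HC2 (6.65%). In RNAi-SlCLV3, which lacks the inversion, 19 of 100 were called too (12.9%).

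KLUH, the growth promoting P450, had 177, 162, 140 and 170 RPKM in 4dpi RNAi-SlCLV3, against 120, 111, 88.5 and 111 RPKM in WT. At 6dpi it had 112, 98.8, 110 and 106 RPKM in RNAi-SlCLV3, against 81.6, 78.8, 70.0 and 82.9 RPKM in WT. At both stages every RNAi-SlCLV3 library lay above every WT library. The means were 1.51 and 1.36 times those of WT, with log2 changes of 0.59 ± 0.09 (adjusted p = 6.89e-06) and 0.44 ± 0.09 (adjusted p = 2.25e-03) that held in each of the 17 alternatives. At the early stage the libraries held 296, 317, 260 and 332 RPKM in RNAi-SlCLV3, against 277, 280, 253 and 267 RPKM in WT, and the groups overlapped (0.16, 95% interval -0.03 to 0.34, adjusted p = 0.420). The effect at 4dpi exceeded that at the early stage by 0.44 ± 0.13, which did not pass (adjusted p = 0.239), nor did the difference of 0.29 ± 0.13 at 6dpi (adjusted p = 0.721).

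**Figure D3:**
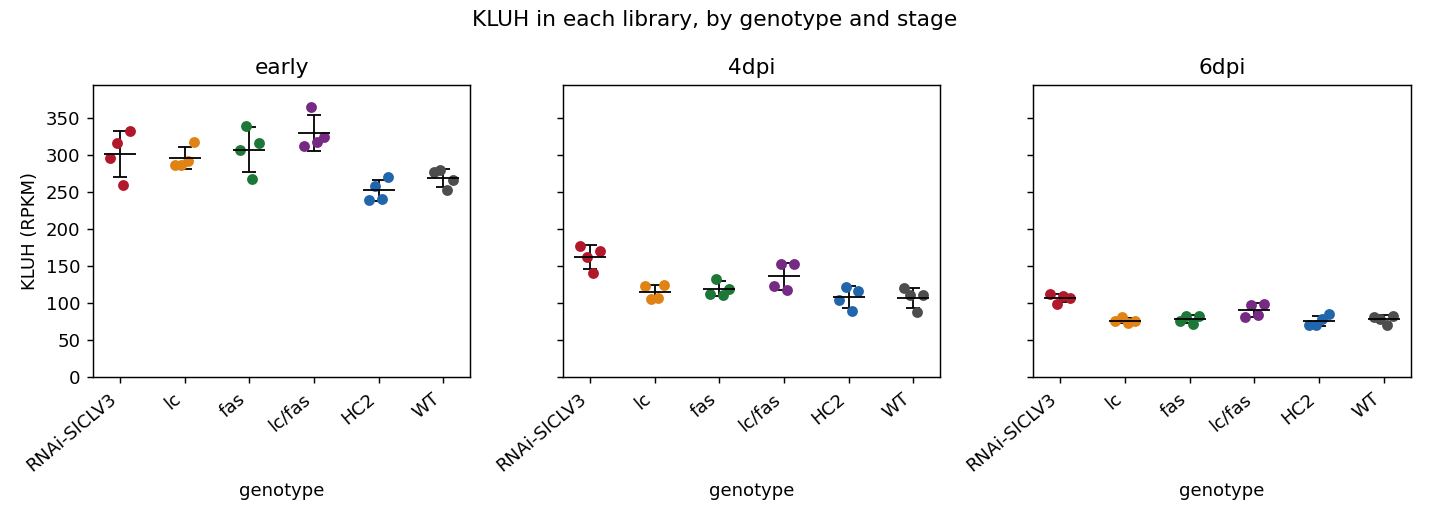
KLUH in RPKM in each library (points) by genotype and stage, with the mean (bar) and SD of 4 replicates. RNAi-SlCLV3 lies above WT at 4dpi (162 and 108 RPKM) and 6dpi (107 and 78.3 RPKM), with lc/fas second at both stages.

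In lc/fas KLUH was at 312, 366, 317 and 325 RPKM early, 124, 152, 118 and 152 RPKM at 4dpi and 81.5, 98.0, 83.4 and 98.8 RPKM at 6dpi. Averaged over the stages it was higher than in WT by 0.28 ± 0.05 (adjusted p = 7.69e-04), the only one of the 6 genes to pass, where 1.02% of all tested genes did. Leaving out the libraries of replicate 4 gave 0.26 at an adjusted p of 0.0523. The single-stage changes of 0.29 early and 0.34 at 4dpi passed only with the replicate number as a block (adjusted p = 0.0302 and 5.38e-03). Same-numbered lc/fas and WT replicates of a stage, less their group means, correlated at 0.247 to 0.576, a pairing that the main fit leaves out. At 4dpi and 6dpi the order of the KLUH means began with RNAi-SlCLV3 and lc/fas, and neighbours in the order overlapped throughout.

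The same stages and genotypes differed in meristem and flower markers. In RNAi-SlCLV3 at 4dpi, SlWUS was at 14.4 RPKM, against 4.78 RPKM in WT, the STM homologue at 113 RPKM, against 74.7 RPKM, the ANT homologue at 113 RPKM, against 80.3 RPKM, and the AP1-type gene at 43.1 RPKM, against 20.1 RPKM, with each passing. Of the 6 meristem and locule genes, 4 passed upward in RNAi-SlCLV3 at 4dpi and 3 at 6dpi, and none downward. Of all 20577 tested genes, 555 and 183 passed upward at these stages. The paper names these genes, some of them for changes in these lines, so the counts only describe the list. SlCLV3 itself, with which reads of the hairpin may be counted, did not pass at those stages. In lc/fas over the stages, SlCLE9 and SlWUS passed upward and SlYABBY2b downward. The part of these marker differences in the KLUH result was not tested.

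The remaining genes did not pass between RNAi-SlCLV3 and WT at any stage. ENO was at 2.47, 1.61, 1.02 and 0.998 RPKM in 6dpi RNAi-SlCLV3, against 0.555, 0.819, 0.457 and 0.591 RPKM in WT. The groups did not overlap and the mean was 2.52 times that of WT, but the change of log2(RPKM + 1), 0.62 (95% interval 0.06 to 1.18), had an adjusted p of 0.543. SUN was at 0.512, 0.377, 0.510 and 0.626 RPKM in early RNAi-SlCLV3, against 0.743, 1.45, 0.802 and 0.767 RPKM in WT. Its mean was 0.539 times that of WT, with a change of log2(RPKM + 1) of -0.35 (-0.65 to -0.05) and an adjusted p of 0.209. At such low values the added 1 makes the log2 change smaller than the fold change. Changes of FW2.2 lay between -0.28 and 0.18 and those of OFP20 between -0.41 and -0.00 over the 3 stages, and all their intervals held 0.

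The third comparison asked whether the natural alleles act on the genes, and the fourth set HC2 against fas and WT. In these libraries the added copy did not measurably raise SlCLV3 RNA. SlCLV3 was at 5.08 to 5.68 RPKM in early HC2, against 4.10 to 6.44 RPKM in early fas and 4.66 to 10.5 RPKM in early WT. The paper reports that plants of the fas background with the pHC2 construct regained bilocular fruits. Over the stages SlCLV3 differed by 0.13 between HC2 and fas (95% interval -0.14 to 0.40, adjusted p = 0.752). SlCLE9 was lower in HC2 than in fas, at 3.20 and 10.6 RPKM early (-1.49, adjusted p = 5.12e-06). By limma 0 of 6 genes passed in lc (0 also at an unadjusted p below 0.05), 0 in fas (1, KLUH, unadjusted), 0 for HC2 against fas (1, KLUH, unadjusted) and 0 for HC2 against WT (0 unadjusted), and voom gave 0 in each. Of all tested genes 0.539%, 0.0826%, 3.81% and 6.65% passed in the same order. These comparisons share their WT or fas libraries.

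The intervals bound how large a change could be. For KLUH the log2 change over the stages was 0.07 (95% interval -0.04 to 0.17) in lc, 0.11 (0.00 to 0.22) in fas, -0.16 (-0.26 to -0.05) for HC2 against fas and -0.04 (-0.15 to 0.06) for HC2 against WT. For OVATE it was -0.01 (-0.20 to 0.19) in lc, -0.17 (-0.37 to 0.02) in fas, 0.03 (-0.16 to 0.23) for HC2 against fas and -0.14 (-0.34 to 0.06) for HC2 against WT. Without the libraries that stood apart the OVATE values were -0.09 in lc, -0.05 for HC2 against fas and -0.22 for HC2 against WT, the last at an adjusted p of 0.0607. The widest intervals were those of ENO, with 0.21 (-0.12 to 0.53) in lc, 0.09 without the libraries that stood apart, and 0.11 (-0.21 to 0.44) for HC2 against WT. At the early stage KLUH had 240, 258, 241 and 270 RPKM in HC2, against 307, 340, 267 and 316 RPKM in fas, overlapping by 1 library pair, and the change of -0.28 ± 0.09 had an adjusted p of 0.179.

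**Figure D4:**
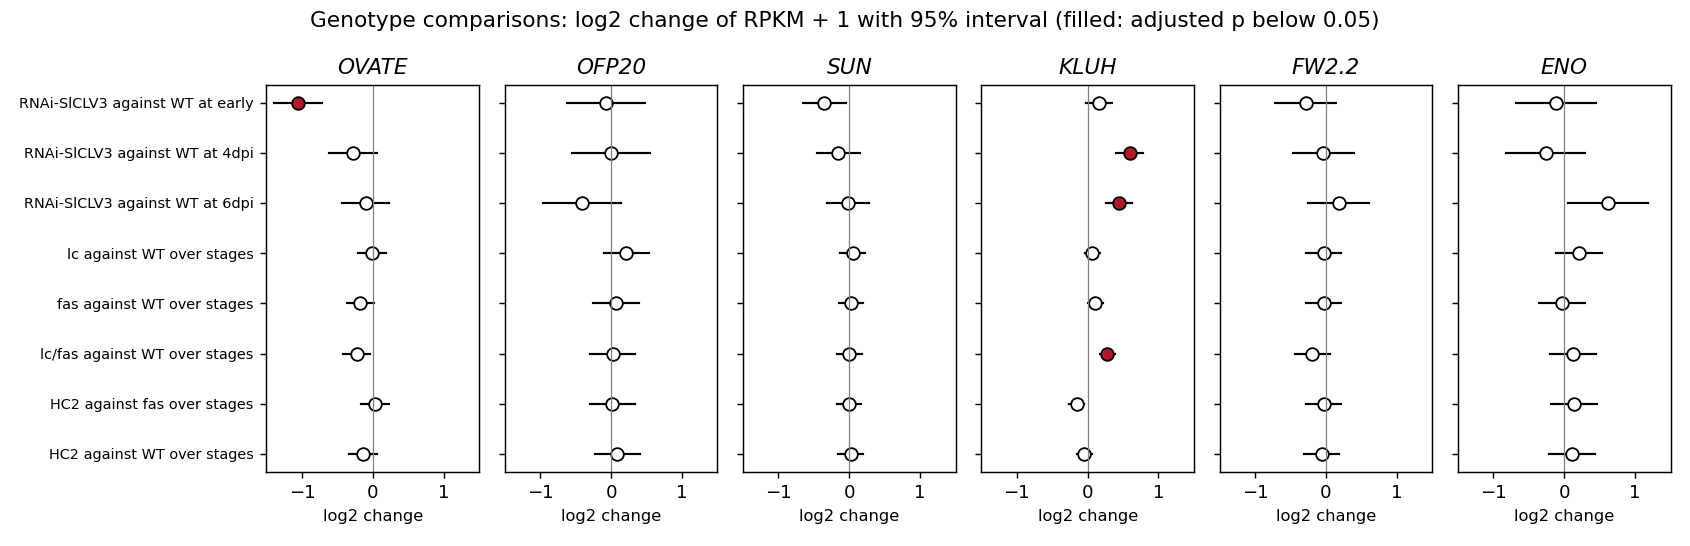
Difference of log2(RPKM + 1) with its 95% interval for the 6 tested genes (columns) in 8 genotype comparisons (rows), filled where the adjusted p is below 0.05. Filled points are OVATE in early RNAi-SlCLV3 (-1.05) and KLUH in RNAi-SlCLV3 at 4dpi (0.59) and 6dpi (0.44) and in lc/fas over the stages (0.28).

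The genes most like the others over the 18 group means carry no name in the sources used here. They were Solyc11g016970 and Solyc08g029240 for KLUH (r = 0.99 each), Solyc03g123990 and Solyc07g054450 for FW2.2 (0.99 each), Solyc08g079760 and Solyc05g051380 for ENO (0.99 each) and Solyc09g008090 and Solyc02g084970 for OFP20 (0.98 and 0.97). For SUN the nearest, Solyc01g009620 and Solyc10g008040, reached only 0.77 and 0.76. Likeness here does not mean a change of the same size. Solyc03g123990 averaged 40.6 RPKM in early WT, 32.1 RPKM at 4dpi and 28.5 RPKM at 6dpi, where FW2.2 averaged 16.4, 4.86 and 2.82 RPKM.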

How the data were processed

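According to the labels and the methods, the authors aligned single-end reads of strand-specific libraries to the tomato genome by TopHat2 and Bowtie2, whose versions are not given in the sources used here, with the ITAG2.3 annotation, and deposited sense-strand RPKM values. No annotation of that build was used here, so chromosomes are those in the identifiers and no coordinates are given.

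Values were taken as log2(RPKM + 1), which understates fold changes of low genes. The 20577 genes that reached 1 RPKM in no fewer than 4 libraries were fitted in limma 3.58.1 (trend, R 4.3.3) with 18 group means over all 72 libraries. Comparisons were two-sided contrasts, adjusted by Benjamini-Hochberg over all tested genes and called below 0.05, and the code was tested on simulated data. Whole reads were recovered from RPKM for 99.9% of tested genes (tolerance 0.01 reads) and used for depth and for voom. Tables and plots used Python 3.11.15, numpy 2.4.6, pandas 2.3.3 and matplotlib 3.10.9.

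Genes named are the 7 loci, 6 locule number and meristem genes, tissue markers, and for each tested locus the 2 genes most correlated over group means. The genes and lists were chosen with earlier results of these data known. Same-numbered replicates, less their group means, correlated above 0.1 in every pair in 7 of 11 comparisons (lowest r 0.117 there), which pairs them as far as the data show. In those of RNAi-SlCLV3 early and over stages and of HC2, some pair did not (lowest r 0.015). The mean r was 0.243 to 0.290 in these and 0.281 to 0.443 in the rest. Comparisons over stages have 12 pairs and the others 4, so the check is stricter over stages. Failing it does not show a lack of pairing.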

Additional observations from a re-analysis of the deposited data

Results flagged for a closer look

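In groups of 4 replicates, 1 library was far from its fellows by Dixon's test in 9 of the 109 groups and genes with values to compare, where chance flags about 1 in 20. For OVATE these were HC2 4dpi replicate 3 (43.7 RPKM, others 19.5 to 23.6) and HC2 early replicate 2 (26.9 RPKM, others 24.1 to 24.5). For OFP20 they were lc 4dpi replicate 2 (15.5 RPKM, others 3.71 to 5.11) and fas 4dpi replicate 3 (6.84 RPKM, others 3.97 to 4.27). For SUN they were lc early replicate 3 (2.58 RPKM, others 1.04 to 1.21) and WT early replicate 2 (1.45 RPKM, others 0.743 to 0.802). FW2.2 was low in fas 6dpi replicate 4 (2.40 RPKM, others 3.01 to 3.06), and ENO was high in lc/fas early replicate 2 (75.6 RPKM, others 47.1 to 51.6). CSR had its only value in fas 4dpi replicate 2 (0.452 RPKM, others 0).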

How the results depend on the processing

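Over the 11 main comparisons and the interaction, 1027 of 1038 values of single genes under an alternative kept their side of the threshold, 1 lost it, 10 gained it and 0 changed sign while called. The alternatives were a pseudocount of 0.1 RPKM, no filter, a mean of at least 5 RPKM, median-of-ratios scaling, quantile normalization, only the compared groups, a replicate block, each library or replicate number left out and, chosen after seeing the data, voom and the absence of the 2 libraries that stood apart. Of the 6 tested genes, quantile normalization called 5 at WT 6dpi against 4dpi, where 3 were called, adding SUN (-0.52) and FW2.2 (-0.81). Of all 20577 tested genes it called 1568 there, instead of 1666. With the replicate block 1 gene was called for HC2 against fas over stages (KLUH, -0.16, adjusted p = 9.79e-03), where 0 were called without it. Of all 20577 tested genes the block called 1466 there, instead of 784. It also called 1 gene in the interaction (KLUH, F = 4.46, adjusted p = 0.0286), where 0 were called, and 123 of all tested genes, instead of 61. HC2 against fas did not meet the pairing check (lowest r 0.051, mean r 0.287), nor did some of the groups in the interaction. That does not show that these groups lack pairing. Apart from these KLUH calls and FW2.2 in WT, the block changed no call in the main comparisons. Without the libraries that stood apart 1 gene (OVATE) was called in the interaction, and 75 of all tested genes. Leaving out replicate numbers gave between 0 and 1 genes for lc/fas against WT over stages. No scaling moved the median of all genes by more than 0.084.

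Over all comparisons, single stages and genotypes included, 44 of 4559 values lost the threshold and 39 gained it, the block changing 11 calls. Among these, the block called the excess of the RNAi-SlCLV3 effect on KLUH at 4dpi over that at the early stage (0.44, adjusted p = 0.0208). It also called that on OVATE at 6dpi over early (0.95, adjusted p = 0.0148) and KLUH in HC2 against fas at the early stage (-0.28, adjusted p = 0.0136). RNAi-SlCLV3 against WT met the pairing check at 4dpi and 6dpi but not early (lowest r 0.074, mean r 0.276). HC2 against fas was checked over stages only. Counts over all tested genes moved more. In the main comparisons the fit of the compared groups alone gave 27.0% (RNAi-SlCLV3 against WT early, 255 instead of 943 genes) or more of the main count, the replicate block up to 353% (fas against WT, 60 instead of 17), a mean of at least 5 RPKM down to 30.4% (RNAi-SlCLV3 against WT at 6dpi, 78 instead of 257), and voom 64.7% for fas (11 instead of 17). In the interaction 61 genes were called, against 38 with a pseudocount of 0.1 RPKM, 105 with no filter, 19 with a mean of at least 5 RPKM, 123 with the block and 25 by voom. Depth limits SUN (3 to 88 reads a library).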
